A study of Mus musculus with 6 samples.

Results

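The genes described here make, break down, store or release glucose in the liver, or control these steps. They are 43 genes chosen by name for their roles in glucose and glycogen metabolism and with earlier results of these data known. All 43 were found among the 24346 genes of the deposited table, and all 43 passed the filter on low values that left 11956 genes for testing, a mean level of 0.5 FPKM or more (fragments sequenced from a gene, scaled to the length of its transcript and the size of the library). By role, 7 belong to gluconeogenesis and glucose release, 4 are liver isoforms or regulators of glycolysis, 11 are glycolytic isoforms typical of other tissues, and 7 are glycolytic enzymes that most cells share. Another 2 are glucose transporters, 7 handle glycogen, 2 open the fructose and pentose phosphate routes, and 3 carry the insulin signal.

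RNA from whole livers was sequenced in 6 male C57/BL6 mice at 8 weeks of age, 24 h after an injection of 0.6 μl CCl4 per g body weight, so every group had received the toxin and no untreated liver was included. The control livers came from 3 med23f/f mice, which carry the floxed Med23 gene and are labelled wt, and the other livers from 3 med23Δli mice, labelled med23 ko, in which Cre driven by the Albumin promoter removes the floxed Med23 segment from hepatocytes and leaves it in other liver cells. MED23 is a subunit of Mediator, the complex that links transcription factors to RNA polymerase II. The study asked whether MED23 takes part in liver fibrosis, and sequenced these livers to learn how its loss raises chemokine expression in hepatocytes. The comparison of the 2 groups is the only one that the labels give.

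Hepatocytes hold blood glucose steady between meals. After feeding they take up glucose and store it as glycogen, and during fasting they degrade glycogen and make new glucose from lactate, amino acids and glycerol, mainly in the periportal part of the lobule. Insulin, through the insulin receptor substrates, AKT and the exclusion of FOXO1 from the nucleus, represses the genes of glucose output, whereas glucagon and glucocorticoids induce them, so these transcripts also follow feeding state and time of day. The labels give neither the feeding state nor the hour of collection.

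Med23 itself, read first as a check of the labels, had 3.42, 2.97 and 4.14 FPKM in the med23f/f livers and 3.40, 3.40 and 2.91 FPKM in those labelled med23Δli. The groups overlapped, and limma gave a log2 fold change of −0.11 (adjusted p 0.686), and the change was 0.02 without med23f/f replicate 3. The values cover all exons and all liver cells and not the deleted part alone, so each direction given below rests on the labels. The 8 defining markers of hepatocytes included 7 found in the table, whose summed level was 23330 to 32900 FPKM in the med23f/f livers and 19200 to 25650 FPKM in the others. Of these 7, Serpina1a fell (adjusted p 0.0305, limma) and 0 rose. Depth cannot be read from FPKM. The 10 most abundant genes held 17.1% to 20.3% of the summed FPKM in the med23f/f livers and 11.9% to 13.7% in those labelled med23Δli.

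The med23f/f livers differed more among themselves than the others did. The SD of log2 values was larger in med23f/f livers for 31 of the 43 genes (72.1%), beside 72.6% of all genes tested. In particular, med23f/f replicate 2 stood below the other 5 livers in 8 of the 43 genes (18.6%) and above them in 14 (32.6%), whereas it was lowest in 29.2% and highest in 22.4% of all genes tested. The 8 genes were G6pc, Pck1, Pfkfb3, Ppp1r3c, Ppp1r3g, Foxo1, Irs1 and Irs2. The 14 genes were Slc37a4, Pcx, Pfkl, Hk1, Hk3, Pfkm, Aldoa, Aldoc, Eno3, Tpi1, Gapdh, Eno1, Khk and G6pdx. Values without this liver are given beside some of the results below.

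Of the 43 genes, 5 (11.6%) rose and 7 (16.3%) fell in the livers labelled med23Δli at an adjusted p under 0.05 (limma on log2(FPKM + 0.1), Benjamini-Hochberg adjustment over 11956 genes), beside 11.6% higher and 9.48% lower of all genes tested. The genes that rose were Gbe1, G6pc3, Pck2, Gys2 and Pgk1, and those that fell were G6pdx, Tpi1, Ugp2, Pfkm, Hk1, Aldoa and Pfkl. More than 2-fold, 1 gene was higher (2.33%, against 4.45% of all genes) and 3 were lower (6.98%, against 3.45%). The 3 values of one group lay wholly above those of the other in 12 genes that were higher (27.9%, against 23.3%) and in 12 that were lower (27.9%, against 20.4%). The share that rose was that of the background, and the median log2 fold change of the 43 genes was −0.13, beside 0.02 for all genes tested. The counts depended on single livers. Leaving out med23f/f replicates 1, 2 and 3 in turn left 5, 4 and 9 genes higher and 5, 4 and 9 lower, and leaving out med23Δli replicates 1, 2 and 3 left 2, 2 and 3 higher and 4, 3 and 1 lower. The corresponding counts beyond 2-fold were 4, 2, 4, 1, 1 and 2 higher and 2, 3, 4, 3, 3 and 1 lower.

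**Figure D1:**
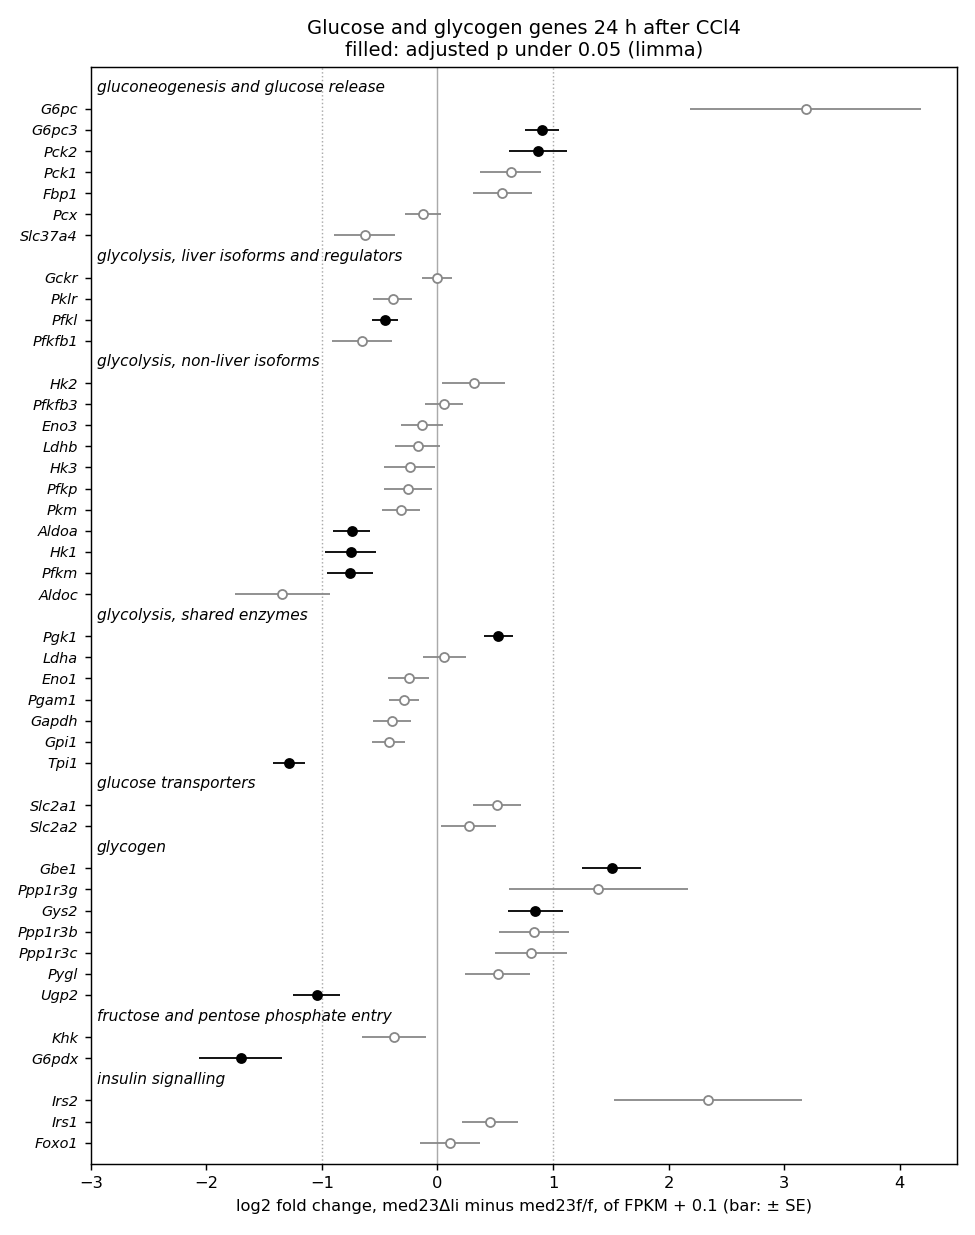
Log2 fold change of log2(FPKM + 0.1) between livers labelled med23Δli and med23f/f livers for the 43 genes, grouped by role, with points for the estimates and bars for ± 1 SE (n = 3 per group), and filled points for an adjusted p under 0.05. The glycogen and gluconeogenesis genes lie mostly to the right of 0 and the glycolytic genes mostly to the left, while the widest bars belong to G6pc, Irs2 and Ppp1r3g.

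Gluconeogenesis and glucose release were represented by 7 genes, of which 2 rose, 0 fell and 5 did not pass, with a median log2 fold change of 0.63. Positions are those of GENCODE M21 on GRCm38, the assembly of mm10. G6pc (chr11:101367561-101377903, plus strand) encodes the catalytic subunit of the glucose-6-phosphatase of liver and kidney, which frees glucose from its phosphate at the last step of glucose output. It had 44.0, 2.98 and 57.2 FPKM in med23f/f replicates 1, 2 and 3, and 276, 194.5 and 109 FPKM in those labelled med23Δli. The groups did not overlap, and med23f/f replicate 2 lay far below all the others. The log2 fold change of 3.19 (SE 1.00) nevertheless missed the threshold, with an adjusted p of 0.0562 in limma. Without med23f/f replicate 2 the change was smaller but less variable, at 1.85 (SE 0.36) with an adjusted p of 0.0226. Without med23f/f replicate 3 it was 3.95 with an adjusted p of 0.0270. The size of the G6pc difference thus moved with the choice of control livers, while each liver labelled med23Δli stayed above each med23f/f liver. The other refits did not pass. Their adjusted p was 0.0681 without med23f/f replicate 1, and 0.153, 0.133 and 0.105 without med23Δli replicates 1, 2 and 3.

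The 250 bases before the transcription start of 5 genes are shown, because G6pc, Pck1 and Irs2 were among the genes lowest in med23f/f replicate 2, and Pck2 and G6pc3 were the gluconeogenic genes that passed the test. They come from RefSeq on GRCm38.p6, in which 41 of the 43 genes had an entry, and are written 5′ to 3′ on the strand of the gene. The entries of Gys2 and Ppp1r3b were missing. The RefSeq start used is not always the GENCODE end of the gene. The 2 lie 155 bases apart for G6pc, 25 for Pck1, 471 for Irs2, 0 for Pck2 and 79 for G6pc3. Capitals mark matches to the motifs searched on both strands. These were the FOXO motif TGTTTAC and the core TGTTTTG of the insulin response element. The cyclic AMP response element was searched as TGACGTCA and the E-box as CACGTG. The motif of ROR receptors was written TAGGTCA and the TATA box TATAAA.
G6pc, chr11:101367466-101367715, plus strand: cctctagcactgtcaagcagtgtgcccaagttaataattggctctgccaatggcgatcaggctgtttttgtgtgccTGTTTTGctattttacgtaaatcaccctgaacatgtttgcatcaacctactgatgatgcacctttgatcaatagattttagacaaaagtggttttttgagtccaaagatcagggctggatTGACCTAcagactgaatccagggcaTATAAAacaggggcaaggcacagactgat
Pck1, chr2:173152823-173153072, plus strand: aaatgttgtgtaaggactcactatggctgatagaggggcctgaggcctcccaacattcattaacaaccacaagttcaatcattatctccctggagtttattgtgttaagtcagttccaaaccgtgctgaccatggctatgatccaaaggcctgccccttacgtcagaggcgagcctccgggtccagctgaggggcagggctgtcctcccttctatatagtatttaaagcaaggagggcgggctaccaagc
Irs2, chr8:11008930-11009179, minus strand: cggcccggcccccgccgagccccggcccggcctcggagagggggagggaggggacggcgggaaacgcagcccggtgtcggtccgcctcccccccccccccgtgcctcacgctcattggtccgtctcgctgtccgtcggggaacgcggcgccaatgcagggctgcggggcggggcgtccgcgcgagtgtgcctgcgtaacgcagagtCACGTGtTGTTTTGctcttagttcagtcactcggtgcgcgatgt
Pck2, chr14:55540016-55540265, plus strand: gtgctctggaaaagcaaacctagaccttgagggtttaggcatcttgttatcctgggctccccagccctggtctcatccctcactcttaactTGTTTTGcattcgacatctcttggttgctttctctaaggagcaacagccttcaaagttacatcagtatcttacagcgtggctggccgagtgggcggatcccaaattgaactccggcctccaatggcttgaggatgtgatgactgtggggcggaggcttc
G6pc3, chr11:102189449-102189698, plus strand: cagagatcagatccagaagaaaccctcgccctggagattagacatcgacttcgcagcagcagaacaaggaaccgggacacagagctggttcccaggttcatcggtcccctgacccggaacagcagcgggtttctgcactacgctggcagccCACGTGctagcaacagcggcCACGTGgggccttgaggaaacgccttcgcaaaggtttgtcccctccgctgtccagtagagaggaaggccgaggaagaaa

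In the G6pc promoter the TGTTTTG match begins 174 bases before the start, the ROR match lies on the opposite strand 54 bases before it, and the TATA box lies 29 bases before it. The Irs2 promoter holds CACGTG 44 bases and TGTTTTG 37 bases before the start, next to each other. The Pck2 promoter holds TGTTTTG 159 bases before the start, and the G6pc3 promoter holds CACGTG 99 and 79 bases before it. None of the motifs occurs in the Pck1 window as an exact match, and variants of their letters were not searched for. The 41 genes have 61 such windows, since some have several starts, and the shares that follow are per window. TGTTTTG was found in 5 of the 61 (8.20%), 1 each of G6pc, Pck2, Gckr, Irs1 and Irs2, and in 5.56% of 32851 mouse promoters. CACGTG was found in 9 of the 61 (14.8%) and in 6.02% of promoters, TAGGTCA in 3 and in 2.23%, TATAAA in 4 and in 12.4%, TGTTTAC in 1 and in 3.17%, and TGACGTCA in 1 and in 1.55%. In Irs1 an E-box and a TGTTTTG match overlap by 2 bases. A match is a description of the sequence and says nothing about binding.

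G6pc3 (chr11:102189620-102194081, plus strand) encodes the widely expressed glucose-6-phosphatase isoform. It had 5.53, 6.14 and 6.68 FPKM in the med23f/f livers and 13.2, 10.97 and 10.6 FPKM in those labelled med23Δli, with no overlap. Limma gave a log2 fold change of 0.91 (SE 0.15) with an adjusted p of 0.00742, and this call held in all 15 alternatives, with adjusted p values up to 0.0413 when a library was left out. Of the summed G6pc and G6pc3 level, G6pc made up 88.8%, 32.7% and 89.5% in the med23f/f livers and 95.4%, 94.7% and 91.2% in the others, so G6pc3 exceeded G6pc in med23f/f replicate 2 alone. The mean shares differed by 23.4 percentage points, and by 4.57 without that liver. Slc37a4, the transporter that carries glucose 6-phosphate to the phosphatase in the endoplasmic reticulum, had 31.9, 35.0 and 17.1 FPKM in the med23f/f livers and 18.4, 15.2 and 18.3 FPKM in the others, and its groups overlapped. Its log2 fold change of −0.63 had an adjusted p of 0.122, and without med23f/f replicate 3 it was −0.95 with an adjusted p of 0.00593. With any other library left out, Slc37a4 did not pass (adjusted p 0.205 to 0.288).

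Phosphoenolpyruvate carboxykinase, which turns oxaloacetate into phosphoenolpyruvate, has a cytosolic form encoded by Pck1 and a mitochondrial form encoded by Pck2. Pck2 had 2.01, 2.83 and 2.83 FPKM in the med23f/f livers and 5.93, 5.28 and 3.32 FPKM in those labelled med23Δli. All 3 of the latter were higher, with a log2 fold change of 0.87 (SE 0.25) and an adjusted p of 0.0427 in limma. The call was lost without med23f/f replicate 1 (adjusted p 0.109) or 2 (0.0633) and without med23Δli replicate 1 (0.149) or 2 (0.134), and an exon of Pck2 overlaps Gm10876 on the opposite strand. Pck1 was far more abundant per length, with 375, 248 and 489 FPKM in the med23f/f livers and 593, 650.5 and 440.3 FPKM in the others. Its groups overlapped, at a log2 fold change of 0.63 with an adjusted p of 0.120, which became 0.37 (0.263) without med23f/f replicate 2 and 0.86 (0.0372) without med23f/f replicate 3. Pck1 held 98.9% to 99.5% of the summed PEPCK level in every liver, and the log2 ratio of Pck2 to Pck1 differed by 0.24 between the groups (exact two-sided permutation test, p = 0.6, the smallest possible being 0.1).

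The other gluconeogenic genes did not pass. Fbp1, the fructose-1,6-bisphosphatase of liver, had 445, 495 and 247 FPKM in the med23f/f livers and 545, 601 and 535 FPKM in the others. These did not overlap, but med23f/f replicate 3 was far below its group, and the log2 fold change of 0.56 had an adjusted p of 0.146 (limma), which became 0.25 (0.220) without that liver. Pcx, pyruvate carboxylase, had 104 to 137 FPKM in the med23f/f livers and 101 to 126.5 FPKM in the others (log2 fold change −0.13, adjusted p 0.578), and its change ran from −0.25 without med23f/f replicate 3 to −0.047 without med23f/f replicate 2. Markers of the lobular zones moved between the groups alongside these genes. Of 8 periportal markers tested 4 fell and 0 rose, and their summed level was 1606 to 2451 FPKM in the med23f/f livers and 942 to 1275 FPKM in the others. Of 7 pericentral markers tested 3 rose and 0 fell, with summed levels of 379 to 522.5 and 799 to 959 FPKM. In whole liver, fewer cells of a type and less RNA per cell cannot be told apart, and the part of the zones in the gluconeogenic values was not tested.

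**Figure D2:**
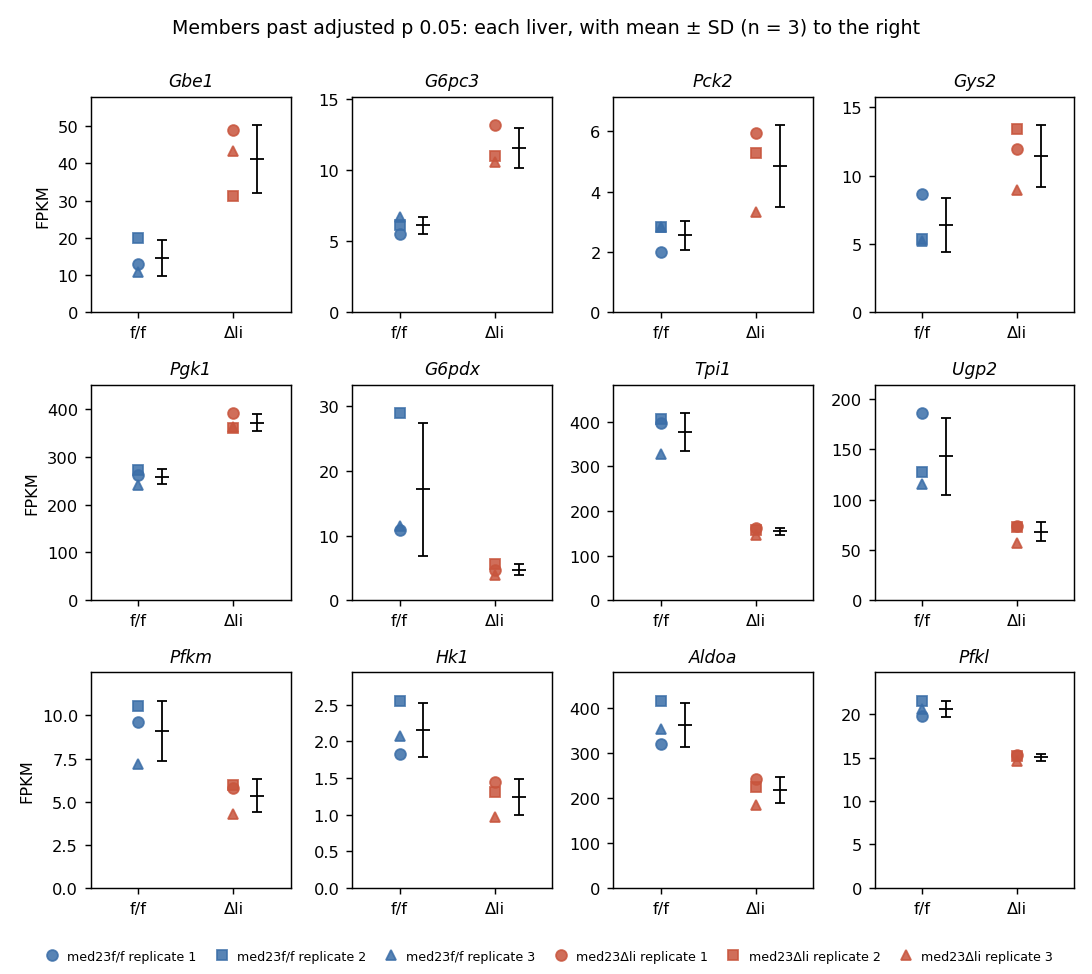
FPKM of the 12 genes with an adjusted p under 0.05, with 1 point per liver (blue, med23f/f; red, labelled med23Δli; the symbol gives the replicate) and the mean ± SD of 3 livers beside it, on axes that start at 0. The 2 groups do not overlap in any of the 12 panels, and the G6pdx value of med23f/f replicate 2, 29.0 FPKM, lies well above those of the other control livers.

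Glycogen metabolism had 7 genes, of which 2 rose, 1 fell and 4 did not pass, with a median log2 fold change of 0.84. Gbe1 (chr16:70313949-70569716, plus strand) encodes the branching enzyme, which adds the side chains of glycogen. It had 13.1, 20.1 and 10.8 FPKM in the med23f/f livers and 49.1, 31.1 and 43.2 FPKM in those labelled med23Δli. The lowest of the latter exceeded the highest control by a wide margin. The log2 fold change was 1.51 (SE 0.26), or 2.84-fold, with an adjusted p of 0.00878 in limma, and the call held in all 15 alternatives (log2 fold change 1.31 to 1.76 with a library left out). Among the 43 genes, Gbe1 was the only one that rose more than 2-fold at an adjusted p under 0.05.

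Gys2, the liver glycogen synthase, which lengthens the chains, had 8.68, 5.34 and 5.21 FPKM in the med23f/f livers and 11.9, 13.4 and 8.98 FPKM in the others. The gap between the highest control and the lowest of the other livers was narrow. The rise of 0.85 on the log2 scale (SE 0.24) had an adjusted p of 0.0406. The call was lost without med23f/f replicate 2 (0.0988) or 3 (0.0729) and without med23Δli replicate 1 (0.124), 2 (0.133) or 3 (0.0576). It was also lost with no filter or with no eBayes trend. Of the summed Gys2 and Gys1 level, Gys2 made up 82.6%, 60.4% and 67.1% in the med23f/f livers and 86.6%, 89.7% and 87.3% in the livers labelled med23Δli, which did not overlap (70.0% ± 11.4 against 87.9% ± 1.59, SD, n = 3 each, exact two-sided permutation p = 0.1, the smallest possible). Gys1, the synthase of muscle and other tissues, had 1.84, 3.51 and 2.55 FPKM against 1.84, 1.55 and 1.30 FPKM (log2 fold change −0.68, adjusted p 0.0947).

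Ugp2 (chr11:21321138-21371201, minus strand) makes UDP-glucose, the donor from which glycogen synthase builds. It went the other way, with 186, 128 and 115 FPKM in the med23f/f livers and 74.1, 73.0 and 57.3 FPKM in those labelled med23Δli. Every one of the latter was below every control. On the log2 scale the change was −1.05 (SE 0.21), a 2.06-fold fall, with an adjusted p of 0.0137, which became 0.0553 without med23Δli replicate 3. An exon of Ugp2 overlaps Gm12043 on the opposite strand, and strand-specific counting is not stated.

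Pygl, the liver glycogen phosphorylase that releases glucose 1-phosphate, had 32.8, 25.3 and 15.4 FPKM in the med23f/f livers and 36.9, 26.5 and 38.8 FPKM in the others. The groups overlapped and the log2 fold change of 0.52 had an adjusted p of 0.211 (limma), which became 0.22 (0.452) without med23f/f replicate 3. Within the phosphorylase family, in which Pygb and Pygm are the brain and muscle forms, Pygl made up 84.8%, 77.0% and 73.9% in the med23f/f livers and 90.3%, 89.5% and 92.5% in the others (78.6% ± 5.64 against 90.8% ± 1.59, SD, n = 3 each, exact permutation p = 0.1). The share did not overlap between the groups, and Pygb fell, at 5.22, 7.06 and 5.01 FPKM against 3.78, 2.87 and 2.99 FPKM. The log2 ratio of Gys2 to Pygl, synthase over phosphorylase, differed by 0.32 (exact permutation p = 0.5) and overlapped.

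Ppp1r3b, Ppp1r3c and Ppp1r3g encode subunits that direct protein phosphatase 1 to glycogen, where it activates synthase and inactivates phosphorylase. Ppp1r3b had 13.6, 10.3 and 5.78 FPKM in the med23f/f livers and 15.4, 14.6 and 20.9 FPKM in the others, and Ppp1r3c had 20.7, 8.11 and 15.5 against 21.1, 24.5 and 27.2 FPKM. Neither overlapped, and their log2 fold changes of 0.84 and 0.81 had adjusted p values of 0.0830 and 0.101. For both the adjusted p was 0.0445 without med23f/f replicate 1, and for Ppp1r3c the change was 0.43 without med23f/f replicate 2. For Ppp1r3b it was 0.50 (adjusted p 0.112) without med23f/f replicate 3. Ppp1r3g was near the lower end of what was tested, and its mean of 0.374 FPKM in the med23f/f livers lay below the 0.5 FPKM of the filter, so that it was tested only through its mean of 0.926 FPKM in the others. Its values were 0.103, 0.0705 and 0.948 FPKM against 0.718, 1.72 and 0.342 FPKM. The groups overlapped, with a log2 fold change of 1.39 and an adjusted p of 0.226. The change was 2.22 (0.0346) without med23f/f replicate 3, which leaves only the controls at 0.103 and 0.0705 FPKM, and the size of a change from so low a level depends on the pseudocount (1.89 at 0.01 FPKM and 0.48 at 1 FPKM over all 6 livers). It was 0.91 (0.470) without med23f/f replicate 2 and 0.86 (0.523) without med23Δli replicate 2.

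**Figure D3:**
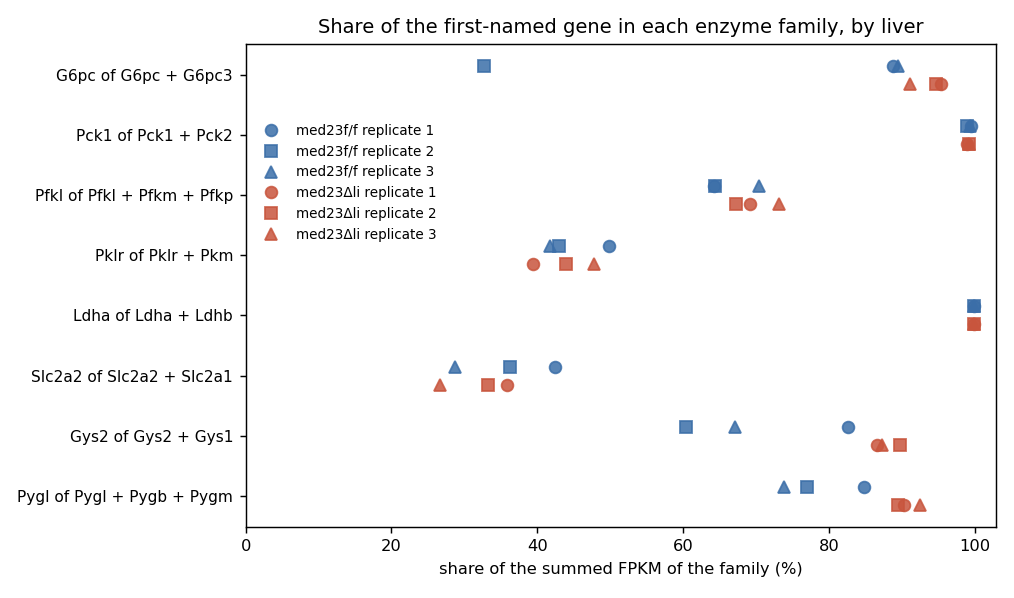
Share (%) of the summed FPKM of an enzyme family held by its first-named gene, with 1 point per liver (blue, med23f/f; red, labelled med23Δli; the symbol gives the replicate). The groups are separate for Gys2, Pygl and G6pc, with med23f/f replicate 2 at 32.7% for G6pc, and overlap in the other 5 families.

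Glycolytic enzymes shared by most cells numbered 7, of which 1 rose, 1 fell and 5 did not pass, with a median log2 fold change of −0.29. Tpi1 (chr6:124810586-124814296, minus strand) encodes triose-phosphate isomerase, which interconverts the trioses made by aldolase. It had 397, 406 and 328 FPKM in the med23f/f livers and 161, 157 and 145 FPKM in those labelled med23Δli. The groups were far apart compared with the spread within each. The log2 fold change was −1.28 (SE 0.14), a 2.43-fold fall, with an adjusted p of 0.00222 in limma, and the call held in all 15 alternatives. Exons of Tpi1 overlap Spsb2 on the opposite strand and 1 pseudogene shares its sequence.

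Pgk1 encodes phosphoglycerate kinase, the first step of glycolysis that yields ATP, and it rose where its neighbours in the pathway did not. It had 262, 272 and 242 FPKM in the med23f/f livers and 393, 361 and 362.5 FPKM in the others, without overlap. Its log2 fold change was 0.53 (SE 0.13) with an adjusted p of 0.0248. The call was lost without med23f/f replicate 1 (0.0504) and without med23Δli replicate 1 (0.110), 2 (0.0849) or 3 (0.0679). Pgk1 has 4 pseudogenes that share its sequence, among which reads could be split.

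The other 5 shared enzymes did not pass. Gapdh, glyceraldehyde-3-phosphate dehydrogenase, had 1293, 1507 and 1123 FPKM in the med23f/f livers and 1102, 1000.0 and 880.0 FPKM in the others. The groups did not overlap, and the log2 fold change of −0.39 had an adjusted p of 0.127 (limma), with 97 pseudogenes sharing sequence with the gene. Gpi1, which converts glucose 6-phosphate to fructose 6-phosphate, had 95.7 to 96.9 FPKM against 63.3 to 85.03 FPKM (−0.42, adjusted p 0.0714). Pgam1, phosphoglycerate mutase, had 152 to 178 FPKM against 123 to 142 FPKM (−0.29, 0.146). These 3 genes passed only after quantile normalization, with adjusted p values of 0.0258 for Gpi1, 0.0234 for Gapdh and 0.0290 for Pgam1. Eno1, enolase 1, overlapped at 301 to 339 against 215 to 333 FPKM (−0.25, 0.338), and its change was −0.41 without med23Δli replicate 1 and −0.096 without med23Δli replicate 3. Ldha, which makes lactate from pyruvate, overlapped at 941 to 1264 against 1010.0 to 1422 FPKM (0.06, 0.842), and its sign turned under quantile normalization and without med23f/f replicate 3 or med23Δli replicate 2.

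Liver isoforms and regulators of glycolysis numbered 4, of which 1 fell, 0 rose and 3 did not pass. Pfkl, the liver phosphofructokinase and a main control point of glycolysis, had 19.8, 21.6 and 20.6 FPKM in the med23f/f livers and 15.3, 15.2 and 14.6 FPKM in those labelled med23Δli. Both groups were tight and separate. In limma the change was −0.45 on the log2 scale (SE 0.12) with an adjusted p of 0.0310, and the call was lost without med23f/f replicate 2 (0.0556) or without med23Δli replicate 1 (0.115), 2 (0.108) or 3 (0.0977). Pklr, the liver pyruvate kinase, had 42.1, 28.9 and 29.2 FPKM against 26.0, 24.4 and 24.97 FPKM without overlap (−0.39, adjusted p 0.136), and its change was −0.21 (0.261) without med23f/f replicate 1. Pfkfb1, the liver enzyme that sets the level of fructose 2,6-bisphosphate, had 13.6, 11.3 and 7.47 FPKM against 4.92, 8.00 and 7.39 FPKM (−0.65, 0.110). It passed without med23f/f replicate 3 (−0.89, 0.0282), and not with any other library left out (0.135 to 0.309). Gckr, the glucokinase regulatory protein, overlapped, at 45.5 to 54.0 FPKM against 47.6 to 54.1 FPKM (log2 fold change −0.0046, adjusted p 0.985).

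Glycolytic isoforms typical of other tissues numbered 11, of which 3 fell, 0 rose and 8 did not pass, with a median log2 fold change of −0.26. Aldoa, the aldolase of muscle and of growing cells, was the most abundant of them, with 320.5, 417 and 353 FPKM in the med23f/f livers and 242, 223 and 185 FPKM in those labelled med23Δli. All 3 of the latter were lower than all controls. The log2 fold change was −0.74 (SE 0.16) with an adjusted p of 0.0186, which became 0.0633 without med23Δli replicate 2 and 0.0664 without replicate 3.

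Pfkm, the muscle phosphofructokinase, had 9.61, 10.6 and 7.19 FPKM in the med23f/f livers and 5.82, 5.96 and 4.28 FPKM in the others, again without overlap. Its log2 fold change was −0.75 (SE 0.20) with an adjusted p of 0.0333, and the call was lost without any one library other than med23f/f replicate 3 (adjusted p up to 0.106). Hk1, the hexokinase of most tissues other than hepatocytes, had 1.83, 2.56 and 2.07 FPKM against 1.44, 1.31 and 0.971 FPKM. It did not overlap, at −0.75 (SE 0.22) with an adjusted p of 0.0470, and the call was lost whichever library was left out (0.0594 to 0.136). The Hk1 call was also lost with a filter at 1 FPKM, no filter, quantile normalization or the replicate number as a block. Exons of Aldoa, Pfkm and Hk1 each overlap a gene on the opposite strand, and those of Pfkm also overlap Gm26513 on the same strand.

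Aldoc, the brain aldolase, had 1.62, 2.84 and 1.32 FPKM in the med23f/f livers and 1.24, 0.498 and 0.447 FPKM in the others. The groups did not overlap, and the log2 fold change of −1.34 (SE 0.41) missed the threshold with an adjusted p of 0.0533. It passed without med23f/f replicate 3 (−1.56, 0.0405) or med23Δli replicate 1 (−1.75, 0.0370), and was −1.04 (0.136) without med23f/f replicate 2, −1.17 (0.152) without med23Δli replicate 2 and −1.11 (0.156) without med23Δli replicate 3. Pkm, the pyruvate kinase of most tissues, had 38.3 to 42.3 FPKM against 27.2 to 40.1 FPKM and overlapped (−0.32, adjusted p 0.194), with a change of −0.19 without med23Δli replicate 3. The log2 ratio of Pkm to Pklr differed by 0.07 (exact permutation p = 0.8), and Pklr made up 44.9% ± 4.36 and 43.7% ± 4.24 of the summed pyruvate kinase level (SD, n = 3 each). Hk2, the hexokinase of muscle and fat, was low and higher in all 3 livers labelled med23Δli, at 0.409, 0.554 and 0.569 FPKM against 0.601, 0.770 and 0.604 FPKM (0.32, 0.428), and its change was 0.19 without med23f/f replicate 1. Hk3, Pfkp, Pfkfb3, Eno3 and Ldhb overlapped, with log2 fold changes from −0.26 to 0.06 and adjusted p values from 0.395 to 0.820. Without med23f/f replicate 2, the change of Hk3 went from −0.24 to −0.037 (adjusted p 0.915). With each library left out, the change ranged from −0.38 to −0.037 for Hk3, −0.39 to −0.16 for Pfkp and −0.27 to −0.10 for Ldhb.

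Cells other than hepatocytes use many of these isoforms, and markers of endothelial cells moved with them. All 6 markers of endothelial cells fell (log2 fold change −1.27 to −0.75, limma), and their summed level was 78.3 to 112.5 FPKM in the med23f/f livers and 41.8 to 44.5 FPKM in the others. Of 6 stellate cell markers 2 fell. Of 8 macrophage markers 0 passed, with sums of 190 to 259 and 220.3 to 232 FPKM, and of 5 neutrophil markers 0 passed. Skeletal muscle markers summed to less than 1 FPKM in every liver. Adipocyte markers summed to 0.243 to 0.469 FPKM in the med23f/f livers and reached 13.3 FPKM in med23Δli replicate 2, where Adipoq had 5.65 and Ucp1 2.29 FPKM whereas both were listed at 0 in the 3 med23f/f livers. The part of these cells in the changes of the non-liver isoforms was not tested.

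Fructose and the pentose phosphate route had 1 gene each. G6pdx (chrX:74409483-74429194, minus strand) encodes glucose-6-phosphate dehydrogenase, which opens the pentose phosphate route and yields NADPH. It had 10.8, 29.0 and 11.5 FPKM in the med23f/f livers and 4.66, 5.56 and 3.89 FPKM in those labelled med23Δli. No overlap was seen, and med23f/f replicate 2 was far above its own group. Limma gave a log2 fold change of −1.70 (SE 0.36), a 3.26-fold fall, with an adjusted p of 0.0171. Without med23f/f replicate 2 it was −1.25 with an adjusted p of 0.00915, and the call was lost without med23Δli replicate 1 (0.0585) or 3 (0.0664). An exon of G6pdx overlaps Ikbkg on the opposite strand. Khk, ketohexokinase, which phosphorylates fructose, had 159, 258 and 116 FPKM against 153, 114 and 124 FPKM. It overlapped at −0.38 (adjusted p 0.351), which became −0.070 without med23f/f replicate 2 and −0.65 (0.0778) without med23f/f replicate 3.

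The 2 glucose transporters did not pass. Slc2a2 encodes GLUT2, the low-affinity transporter of hepatocytes, and had 8.79, 7.18 and 7.66 FPKM in the med23f/f livers and 13.7, 8.90 and 6.99 FPKM in the others (log2 fold change 0.27, adjusted p 0.439), and the change was 0.0066 (0.986) without med23Δli replicate 1 and 0.49 (0.191) without med23Δli replicate 3. Slc2a1 encodes GLUT1, the transporter of most other cells, and had 11.9, 12.7 and 19.0 against 24.4, 17.9 and 19.3 FPKM (0.52, 0.115). Both overlapped, and Slc2a1 passed without med23f/f replicate 3 (0.73, 0.0204), and not with any other library left out (0.158 to 0.321). The log2 ratio of Slc2a1 to Slc2a2 differed by 0.25 (exact permutation p = 0.4), and Slc2a1 exceeded Slc2a2 per length in all 6 livers.

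Insulin signalling was represented by Irs1, Irs2 and Foxo1, and 0 of the 3 passed. Irs2 (chr8:10984681-11008458, minus strand), the substrate that relays insulin to glucose output in liver, had 3.20, 0.409 and 6.72 FPKM in the med23f/f livers and 13.9, 12.8 and 8.15 FPKM in those labelled med23Δli. The order of the 3 control livers was that of G6pc, with replicate 2 lowest and replicate 3 highest. The groups did not overlap, at a log2 fold change of 2.34 (SE 0.82) with an adjusted p of 0.0762. It was 1.27 (0.0539) without med23f/f replicate 2 and 3.14 (0.0181) without med23f/f replicate 3. The adjusted p was 0.115 without med23f/f replicate 1, and 0.181, 0.173 and 0.137 without med23Δli replicates 1, 2 and 3. Exons of Irs2 overlap 9530052E02Rik on the opposite strand. Irs1 had 2.77, 1.50 and 2.79 against 3.21, 3.13 and 3.11 FPKM and did not overlap, and its change of 0.46 (adjusted p 0.211) became 0.17 without med23f/f replicate 2. Foxo1, the forkhead factor that insulin excludes from the nucleus, overlapped at 5.20 to 9.20 against 5.23 to 8.49 FPKM (0.11, 0.797), and its sign turned without med23f/f replicate 2 or med23Δli replicate 3.

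**Figure D4:**
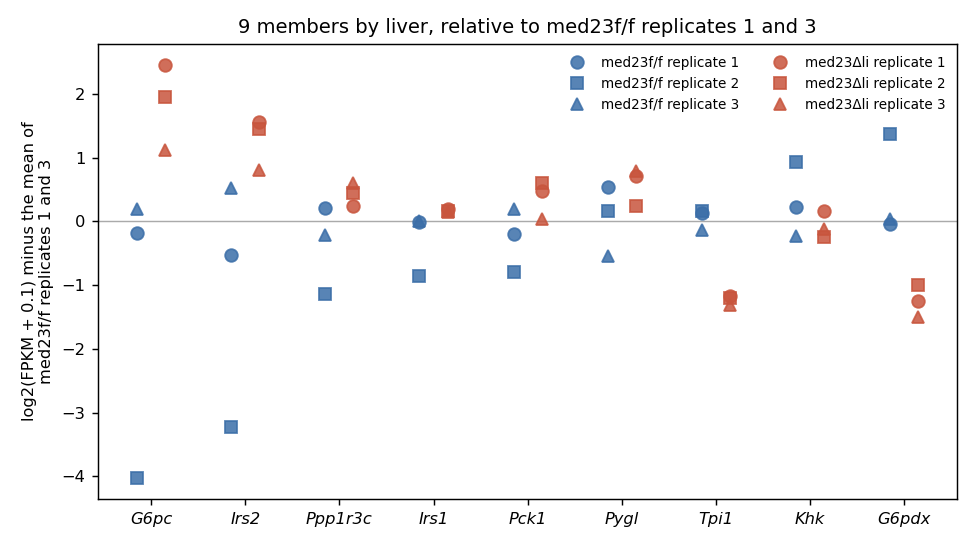
log2(FPKM + 0.1) of 9 genes in each liver, relative to the mean of med23f/f replicates 1 and 3 (blue, med23f/f; red, labelled med23Δli; the symbol gives the replicate). Replicate 2 of the med23f/f livers (blue square) lies at −4.03 for G6pc, −3.22 for Irs2 and 1.37 for G6pdx, whereas it lies with the other controls for Tpi1 and Pygl.

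The other genes of these pathways were read from a list of 119, of which 118 were in the table and 96 passed the filter. In this list 16 rose (16.7%) and 9 fell (9.38%), beside 11.6% and 9.48% of all genes tested, with a median log2 fold change of 0.12. Beyond 2-fold 5 rose (5.21%) and 2 fell (2.08%), beside 4.45% and 3.45% of all genes tested. By group, the pyruvate and malate steps had 8 that rose and 2 that fell of 25 tested. Insulin, glucagon and their factors had 4 and 1 of 27, other glycogen genes 1 and 3 of 18, and other enzymes of glycolysis and gluconeogenesis 1 and 1 of 10. Fructose, galactose and polyol genes had 1 and 1 of 6, pentose phosphate genes 1 and 1 of 7, and other glucose transporters 0 and 0 of 3. Without med23f/f replicates 1, 2 and 3 the counts were 14, 11 and 21 higher and 8, 6 and 11 lower, and without med23Δli replicates 1, 2 and 3 they were 3, 5 and 8 higher and 2, 2 and 1 lower.

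The 6 largest rises past the test were those of Grb10, Foxo3, Pik3r1, Galm, Pdp1 and Dlat. Grb10, an adaptor that binds the insulin receptor and dampens its signal, had 1.11, 1.03 and 1.05 FPKM in the med23f/f livers and 5.57, 4.94 and 7.53 FPKM in those labelled med23Δli. This was a log2 fold change of 2.37 (SE 0.19), or 5.18-fold, with an adjusted p of 0.000918 in limma. Foxo3, a forkhead factor related to Foxo1, had 1.34, 1.10 and 0.978 against 3.04, 3.57 and 3.64 FPKM (1.51, adjusted p 0.00337). Pik3r1, the regulatory subunit of phosphoinositide 3-kinase, had 6.73, 3.05 and 5.20 against 9.74, 9.26 and 12.6 FPKM (1.12, 0.0283). All 3 were separate between the groups. The same held for Galm, galactose mutarotase (1.05, 0.0185), Pdp1, a phosphatase that activates pyruvate dehydrogenase (1.01, 0.0398), and Dlat, a core subunit of pyruvate dehydrogenase (0.86, 0.00878).

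The 6 largest falls past the test were those of Gpt2, Nhlrc1, Pygb, Creb3l3, Bpgm and Got1. Gpt2, the mitochondrial alanine aminotransferase that feeds alanine into gluconeogenesis, had 150.2, 200.2 and 154 FPKM in the med23f/f livers and 62.2, 83.5 and 49.4 FPKM in the others (log2 fold change −1.39, adjusted p 0.00657), so the groups were separate. Got1, the cytosolic aspartate aminotransferase, had 330.3, 195 and 307 against 174.6, 169.9 and 159 FPKM, also separate (−0.69, 0.0497). On the log2 scale the changes were −1.13 for Nhlrc1, a ubiquitin ligase of glycogen turnover, −0.82 for Pygb, −0.71 for Creb3l3, a liver transcription factor, and −0.70 for Bpgm, bisphosphoglycerate mutase (adjusted p 0.0390, 0.0221, 0.0402 and 0.0157). Grb10, Foxo3, Dlat and Gpt2 passed whichever library was left out. Bpgm and Pik3r1 were lost without any one of the med23Δli livers (adjusted p up to 0.0707 and 0.1003), Galm without med23Δli replicate 1 or 3 (0.0744), and Pygb without med23Δli replicate 2 or 3 (0.0848). Nhlrc1 and Creb3l3 were lost without any library but med23f/f replicate 1 (up to 0.115 and 0.127), Pdp1 without any but med23f/f replicate 3 (0.143), and Got1 without any but med23f/f replicate 2 (0.138).

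**Figure D5:**
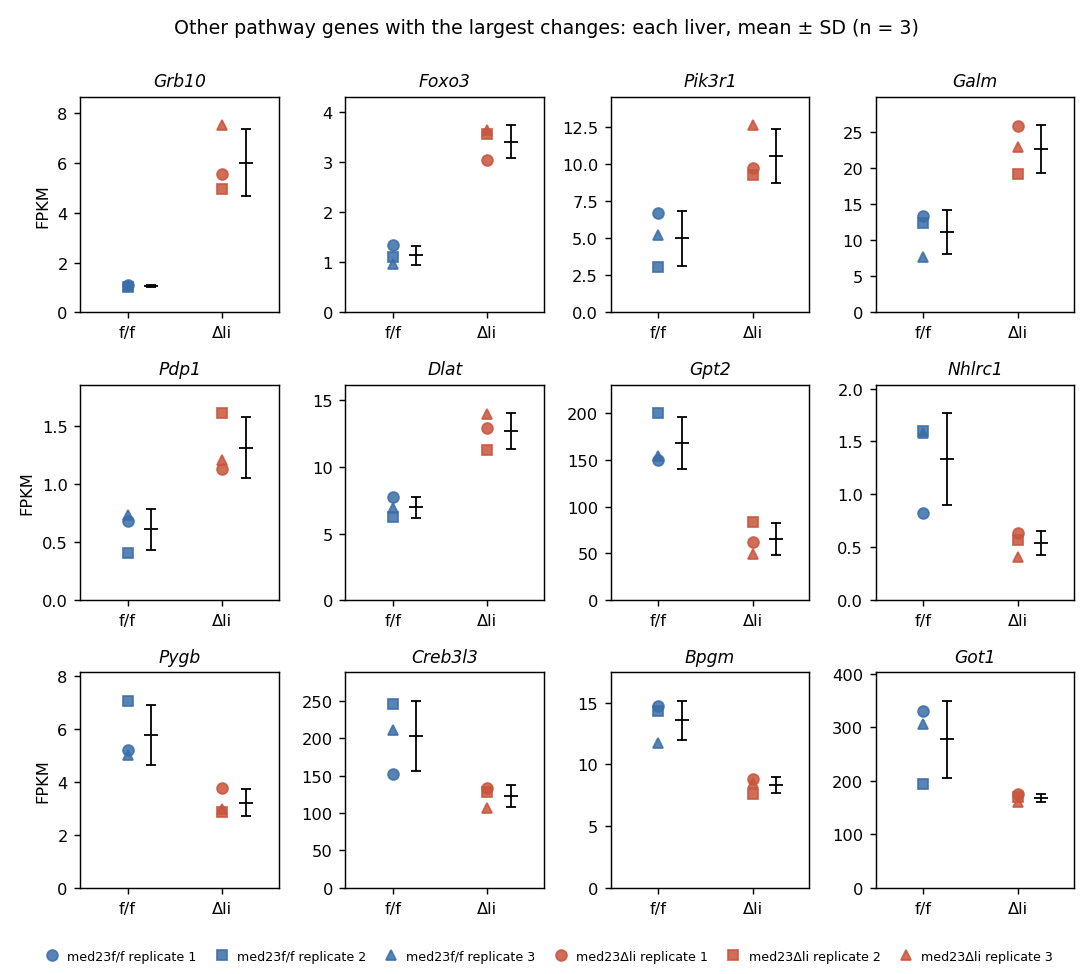
FPKM of the 12 named genes of the wider pathway list, with 1 point per liver (blue, med23f/f; red, labelled med23Δli; the symbol gives the replicate) and the mean ± SD of 3 livers beside it, on axes that start at 0. The groups are separate in all 12 panels, and Grb10 shows the widest relative gap, from about 1.06 to 6.01 FPKM on average.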

How the data were processed

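Whole-liver RNA from 3 med23f/f mice and 3 mice labelled med23Δli was sequenced, 1 library per mouse. The authors trimmed and aligned paired reads to mm10 with TopHat and ran Cuffdiff, whose versions, annotation and strand setting are not given in the sources used here. The deposited table holds FPKM per gene and library, normalized by the authors for transcript length and library size. It also holds group values, log2 fold changes, q-values and p-values from the authors' own comparison, none of which was used. Columns of single libraries left unmapped to a sample numbered 0. The paper gives a median number of reads over the samples. FPKM carry no counts, so the depth of each library is unknown, and the spread between mice is the only error.

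Values were taken as log2(FPKM + 0.1), which understates the change of low genes. Genes averaging 0.5 FPKM or more were fitted with the R package limma (version 3.58.1 under R 4.3.3, lmFit and eBayes with trend), with no block, and Benjamini-Hochberg adjustment over all genes tested. Ratios and shares were compared by exact permutation of the 3 against 3 livers (two-sided), whose smallest p is 0.1. The script was tested on simulated data. The replicate number as a block, each library left out, robust eBayes, eBayes with no trend, quantile normalization, median centring, other filters (none, or 1 FPKM) and other pseudocounts (0.01 or 1) served as alternatives. The members and gene lists were chosen with earlier results of these data known, and the shares of isoforms within enzyme families were added after the values were seen. All 43 genes are accounted for, those with an adjusted p under 0.05 by their value in every liver. Of the wider pathway list, up to 6 genes in each direction with the largest changes past the test are named. Same-numbered livers did not deviate together (r = −0.02, −0.05 and −0.12 across genes). Positions and pseudogenes come from GENCODE M21, and promoters from RefSeq GRCm38.p6. A pseudogene was counted where at least 20% of its own 31-base words occurred in the gene's transcripts. Tables and figures were made in Python 3.11.15 with matplotlib 3.10.9, scipy 1.17.1, pandas 2.3.3 and numpy 2.4.6. Some genes of these pathways are not reported here.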

Additional observations from a re-analysis of the deposited data

How the results depend on the processing

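Of the 12 genes that passed, G6pc3, Tpi1 and Gbe1 kept an adjusted p under 0.05 in all 15 alternatives, and 0 of the 12 changed sign. Apart from left-out libraries, the call was lost with no filter for Pck2, Hk1, Pfkm and Gys2. Pck2 and Gys2 also lost it with no trend, and Pck2 and Hk1 with quantile normalization. The replicate block ended it for Pck2, Hk1, Pfkl and Pgk1, and the filter at 1 FPKM for Hk1. Of the 31 that did not pass, 13 passed in at least 1 alternative. With each library left out, 2 to 9 genes were higher and 1 to 9 lower, and beyond 2-fold 1 to 4 were higher and 1 to 4 lower. In the wider list 3 to 21 were higher and 1 to 11 lower. The log2 ratio differences ranged from −0.074 to 0.19 for Pkm to Pklr, 0.039 to 0.47 for Slc2a1 to Slc2a2, 0.029 to 0.59 for Gys2 to Pygl, and 0.042 to 0.58 for Pck2 to Pck1. Of the 43 genes, 3 were higher with no filter, 3 with no trend and 3 with the replicate block, and a pseudocount of 1 put 2 beyond 2-fold higher. In the wider list 10 were higher and 2 lower with the replicate block, and 5 lower with no filter. Same-numbered livers were not correlated and no liver correlated best with its own number, so the block tests no known pairing.

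Signs turned in values near 0. With each library left out, the log2 fold change ranged from −0.079 to 0.046 for Gckr, −0.078 to 0.14 for Pfkfb3, −0.23 to 0.0092 for Eno3, −0.081 to 0.17 for Ldha, −0.057 to 0.35 for Foxo1 and −0.22 to 0.017 for Med23, and Ldha had −0.13 with quantile normalization. Differences of shares, in percentage points, ranged from −0.293 to 0.00597 for Pck1 and −3.25 to 1.29 for Pklr. The cause of these changes was not tested.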

Other observations

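Single livers other than med23f/f replicate 2 also stood at the ends of the range. Replicate 3 of the livers labelled med23Δli was the lowest of the 6 livers in 15 of the 43 genes, beside 20.2% of all genes tested, and the highest in 3, beside 10.8%. Replicate 1 of that group was the highest in 9 genes and the lowest in 2, beside 14.3% and 10.8% of all genes tested. In med23f/f replicate 2, Ppargc1a, a coactivator of gluconeogenic genes, had 0.645 FPKM, below the 2.33 and 4.40 FPKM of med23f/f replicates 1 and 3 and the 5.11, 7.64 and 5.41 FPKM of the livers labelled med23Δli. The order of the 3 control livers for this gene was that of G6pc and Irs2. Ppargc1a was chosen for mention after its values were seen, and its log2 fold change of 1.59 had an adjusted p of 0.0819 in limma, and without med23f/f replicate 2 it was 0.87 (adjusted p 0.0905).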
